A study of Mus musculus with 12 samples.

Results

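The 10 genes described here make glutathione or set how a cell meets lipid peroxidation: Slc7a11 and Slc3a2, Gclc, Gclm and Gss, Gsr, Gpx4, Aifm2, Acsl4 and Lpcat3. They were chosen by name for these roles, and all 10 were found, each as 1 entry, among the 12441 genes of the deposited expression tables. RNA was sequenced from mouse bone marrow-derived macrophages, cells grown out of bone marrow for 6 days in medium holding 10% conditioned medium of the L929 fibroblast line, which supplies macrophage growth factor. Both genotypes were measured with and without lipopolysaccharide (LPS), a bacterial outer membrane component sensed through Toll-like receptor 4. The 4 groups, with 3 libraries each, were D316Y with LPS (100 ng/mL for 24 h), D316Y unstimulated, WT with LPS (the same dose and time) and WT unstimulated. D316Y cells carried this amino acid change of COQ6, a monooxygenase of coenzyme Q synthesis, on both alleles according to the series title, and WT cells had the normal gene. The labels give neither the age nor the strain of the mice, and do not state whether a replicate is its own mouse, culture or library. The p-values therefore measure the spread between these libraries, which may be technical.

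Glutathione is built from cysteine, which macrophages take up largely as cystine through an exchanger formed by SLC7A11 and its partner SLC3A2. Glutamate-cysteine ligase (GCLC with its modifier GCLM) and glutathione synthetase (GSS) join the amino acids, and glutathione reductase (GSR) returns the oxidised form to use. GPX4 spends glutathione to reduce lipid peroxides in membranes. AIFM2 (also called FSP1) limits lipid peroxidation by another route, reducing coenzyme Q to a radical-trapping quinol. ACSL4 and LPCAT3 place the polyunsaturated fatty acids in phospholipids that peroxidation attacks. Ferroptosis is the iron-dependent death that follows when these peroxides accumulate.

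Each library held 32.8 to 47.2 M reads over the listed genes. The first principal component of the 12 libraries held 71.0% of the variance. The macrophage label was borne out by all 10 macrophage markers, whose summed level lay between 55538 and 64342 counts-per-million units (CPM) in D316Y LPS and between 32772 and 35811 CPM in D316Y unstimulated libraries. It lay between 65286 and 71562 CPM in WT LPS and between 35432 and 39795 CPM in WT unstimulated libraries. Of 12 neutrophil markers 6 were measured, without Mpo, Elane, Ctsg and Ly6g, which were not analysed here, and they summed to 196 to 227 CPM in D316Y LPS, 68.8 to 87.9 in D316Y unstimulated, 187 to 199 in WT LPS and 66.7 to 87.9 in WT unstimulated libraries. The highest measured marker in every library was Csf3r for the neutrophil list (5.70 to 7.53 log2 CPM), a receptor gene that macrophages also express, and Lyz2 for the macrophage list (14.70 to 15.93), while Mrc1 spanned 1.36 to 7.11 log2 CPM. Of the other lists, few markers were measured: 5 of 8 for dendritic cells, 1 of 9 for lymphocytes (Cd4), 2 of 7 for erythroid and stem cells (Kit and Cd34) and 2 of 6 for fibroblasts. These summed to at most 11.4 CPM in any library, and the unmeasured ones were not analysed here. Cd4 lay between 1.99 and 2.63 CPM in D316Y LPS, 4.52 and 8.84 in D316Y unstimulated, 1.36 and 3.75 in WT LPS and 5.36 and 11.4 in WT unstimulated libraries. Kit and Cd34 summed to 0.302 to 0.873 CPM in D316Y LPS, 2.01 to 3.01 in D316Y unstimulated, 0.447 to 0.905 in WT LPS and 2.74 to 3.59 in WT unstimulated libraries. Summed macrophage and neutrophil markers were thus higher with LPS, and Cd4 and the stem cell markers lower, beside the genes below, and their part in those results was not tested. The 2 unstimulated replicate 1 libraries stood apart: mitochondrially encoded genes took 0.949% of the reads in D316Y and 0.449% in WT, against 1.97% to 2.97% in the other unstimulated libraries. Coq6 RNA itself did not pass between genotypes (0.07 log2 units at rest, adjusted p = 0.953, and 0.02 with LPS, adjusted p = 0.995, limma), and its level does not check an amino acid change. Where leaving out both of these libraries changed a call of the 10 genes, this is stated, and for some of the differences it moved the value without them is given too. In bulk RNA, fewer cells of a type and less RNA per cell cannot be told apart.

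Promoters of 8 of the 10 genes, all but Gclc and Gsr, were read from RefSeq (assembly GRCm38.p6), and 2 of these held a searched motif. The searches were for the CEBP-ATF response element, TGATGNAA, which ATF4 binds in response to amino acid shortage, and the core of the antioxidant response element, TGACNNNGC, which NRF2 binds with small MAF proteins, both on either strand of 300 bases around the start. Only these 2 promoters, those with a match, are shown, and capitals mark the matches. Their genes stand at the entry and the first step of glutathione synthesis. The stretches printed are the 250 bases before the start, 5′ to 3′ on the gene's strand, at chr3:50443614-50443863 on the minus strand for Slc7a11 and chr3:122245307-122245556 on the plus strand for Gclm.
Slc7a11: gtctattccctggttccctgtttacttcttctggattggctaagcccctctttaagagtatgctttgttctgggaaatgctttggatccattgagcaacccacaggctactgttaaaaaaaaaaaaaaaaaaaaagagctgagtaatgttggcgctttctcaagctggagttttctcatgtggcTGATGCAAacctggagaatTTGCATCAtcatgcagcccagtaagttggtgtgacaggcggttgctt
Gclm: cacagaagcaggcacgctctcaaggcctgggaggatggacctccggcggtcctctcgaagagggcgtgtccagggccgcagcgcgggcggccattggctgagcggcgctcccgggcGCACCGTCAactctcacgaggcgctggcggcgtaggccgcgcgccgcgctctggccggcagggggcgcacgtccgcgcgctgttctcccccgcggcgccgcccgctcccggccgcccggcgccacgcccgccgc

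The Slc7a11 promoter held 2 CEBP-ATF matches facing each other, 66 to 59 bases before the start on the gene's strand and 47 to 40 bases before it on the opposite strand. That motif was in 1304 of 32851 mouse promoters of the same length (3.97%) and in no other of the 8. The Gclm promoter held 1 antioxidant core match on the opposite strand, 134 to 126 bases before the start, a motif found in 4071 promoters (12.4%) and in no other of the 8. The motifs do not overlap each other in these windows. The match is one of letters, not of measured binding.

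The levels of the 10 genes spanned more than 3 orders of magnitude when divided by exon length (CPM per kilobase of exon), the scale on which genes can be compared. Gpx4, which has an exon length of 1724 bases on chromosome 10, was the highest in every group, at 653 ± 62.7 CPM per kilobase in D316Y LPS, 396 ± 108 in D316Y unstimulated, 590 ± 145 in WT LPS and 351 ± 92.6 in WT unstimulated libraries (SD, n = 3 each). Slc3a2 came next in every group, with means between 36.7 and 52.6 CPM per kilobase. At the other end stood Slc7a11, Gclc and Gclm. Without LPS, Slc7a11 (exon length 13922 bases, chromosome 3) was the lowest of the 10, at 0.235 ± 0.0708 CPM per kilobase in D316Y and 0.135 ± 0.0473 in WT cells.

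**Figure D1:**
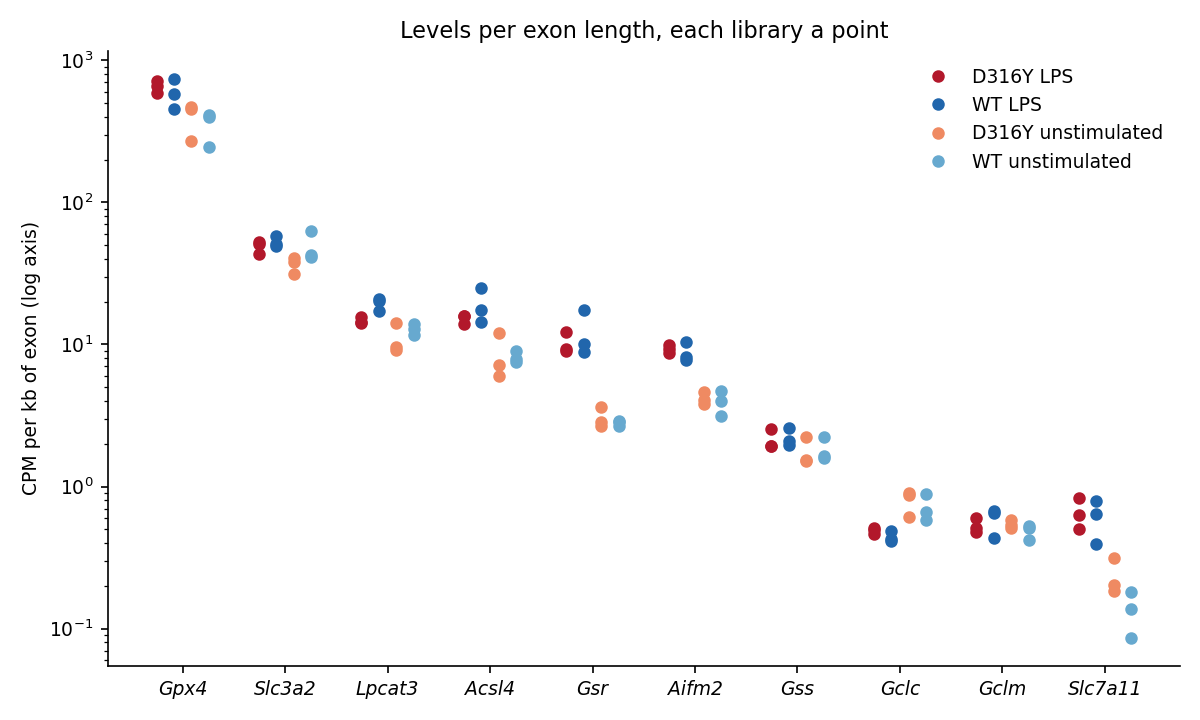
Level of each gene per exon length (vertical axis, CPM per kilobase of exon, log axis) in each of the 12 libraries, 1 point per library, coloured by group. Gpx4 lies above all other genes in every group, and Slc7a11 moves from below Gclc and Gclm in unstimulated libraries to their level in LPS libraries.

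In unstimulated cells of both genotypes the order by mean was Gpx4, Slc3a2, Lpcat3, Acsl4, Aifm2, Gsr, Gss, Gclc, Gclm and Slc7a11. Among neighbours in that order, only Lpcat3 and Acsl4 in D316Y overlapped between libraries. With LPS, Gsr stood above Aifm2 and Slc7a11 above Gclm and Gclc, but the values of these neighbours overlapped: Gsr averaged 10.2 and Aifm2 9.28 CPM per kilobase in D316Y LPS libraries, and 12.1 and 8.81 in WT LPS libraries. Slc7a11, Gclm and Gclc averaged 0.657, 0.528 and 0.489 CPM per kilobase in D316Y LPS libraries and 0.609, 0.587 and 0.445 in WT LPS libraries. Acsl4 and Lpcat3 also overlapped with LPS, at 15.2 and 14.6 CPM per kilobase in D316Y and 19.0 and 19.4 in WT cells, where Acsl4 and Gsr overlapped as well.

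The first comparison asked what 24 h of LPS did to these genes in each genotype. In both, 6 of the 10 rose (Slc7a11, Gsr, Gpx4, Aifm2, Acsl4 and Lpcat3), 1 fell (Gclc), and Slc3a2, Gclm and Gss did not pass the test. The test was limma on log2 CPM with Benjamini-Hochberg adjustment over all genes and a threshold of 0.05. CPM rest on effective library sizes, 41.2 to 55.8 M without LPS and 32.6 to 43.1 M with it. These were above the reads over the listed genes in every unstimulated library and below them in every LPS library. Per read over the listed genes, each LPS difference would thus be lower than the one given. Groups apart in log2 CPM could overlap on that scale, which was not tested. Among all genes tested, 38.4% passed in D316Y, with 19.4% higher and 19% lower, and 37.1% passed in WT, with 18.1% higher and 19% lower. The median difference of the 10 genes was 0.60 log2 units in D316Y and 0.68 in WT, against medians of −0.03 and −0.01 over all genes tested. The libraries of the compared groups did not overlap for 7 of the 10 genes in each genotype, where the share over all genes was 52.8% in D316Y and 46.8% in WT.

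**Figure D2:**
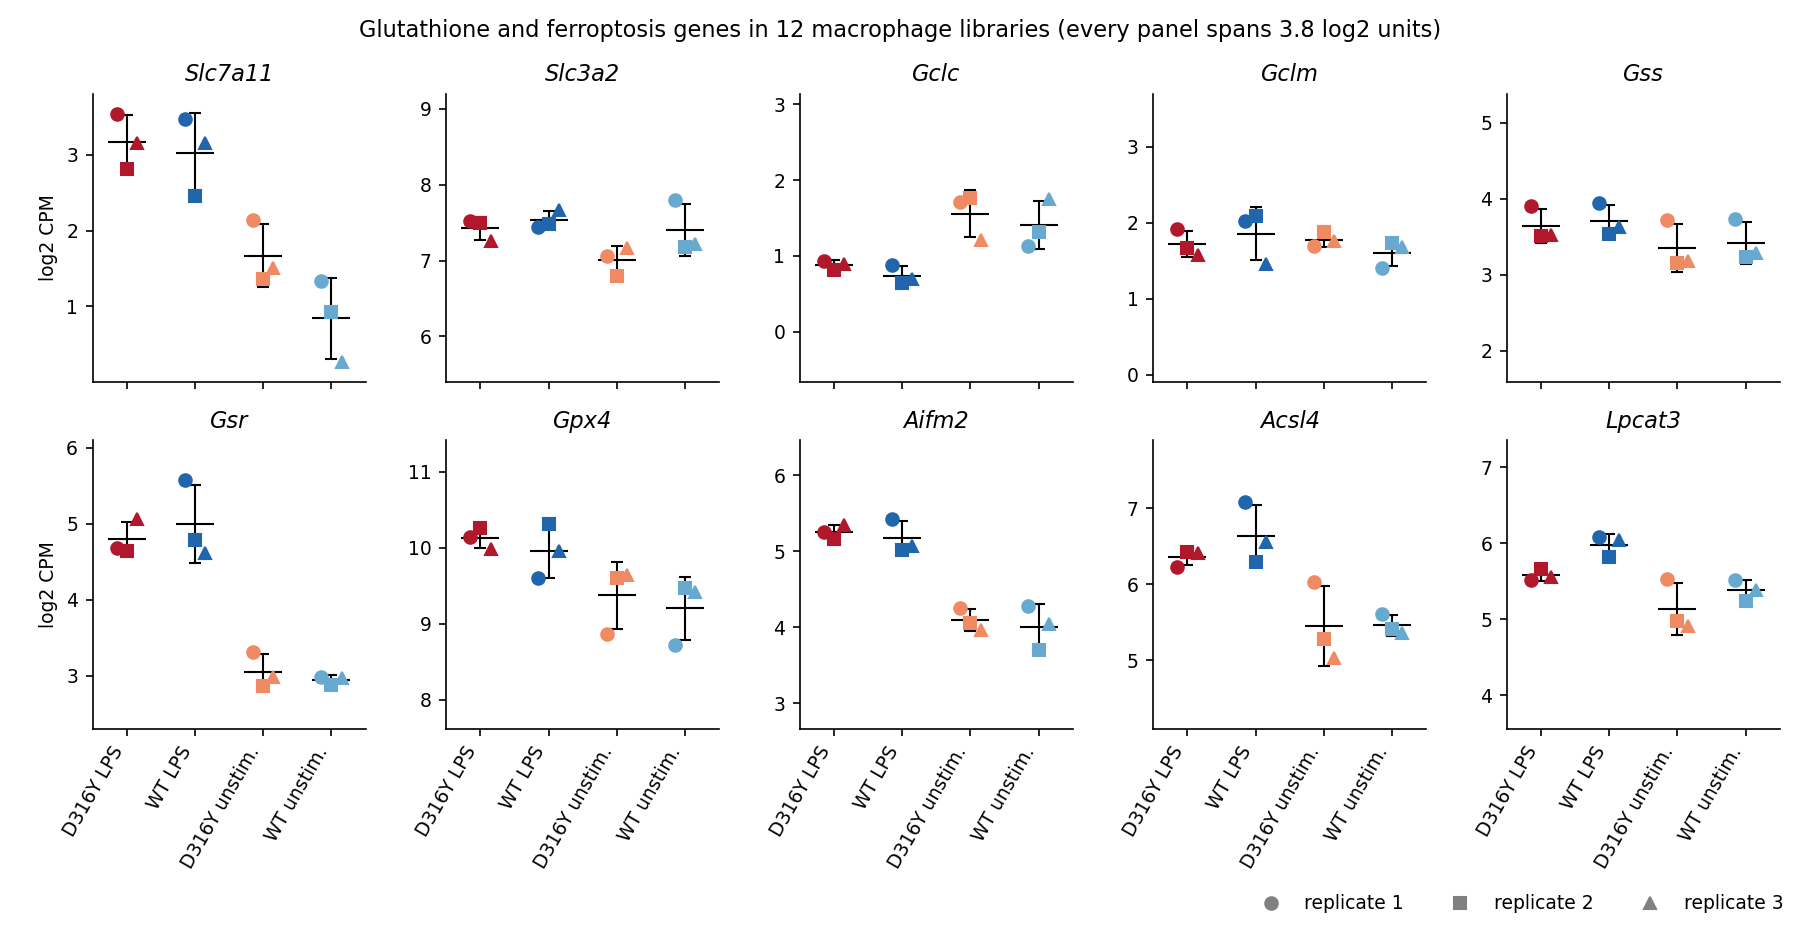
Deposited log2 CPM (vertical axes, each panel spanning the same range) of the 10 genes in each library; symbols mark the replicate number, the long line is the group mean and the bar 1 SD (n = 3). Gsr and Aifm2 lie higher in every LPS library than in any unstimulated library, and Gclc lies lower.

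RNA was measured for both chains of the cystine exchanger, and import itself was not. Slc7a11, its transport subunit, had 3.53, 2.81 and 3.15 log2 CPM in D316Y LPS libraries, against 2.14, 1.36 and 1.50 in D316Y unstimulated libraries. WT libraries had 3.47, 2.45 and 3.15 log2 CPM with LPS, against 1.33, 0.93 and 0.27 without. Every LPS library was above every unstimulated one of either genotype. The difference was 1.50 log2 units in D316Y (SE 0.33, 2.82-fold, adjusted p = 0.00246, limma) and 2.18 in WT (SE 0.33, 4.54-fold, adjusted p = 0.000149). These values rest on 265 to 421 reads per library in D316Y LPS, 138 to 229 in D316Y unstimulated, 208 to 476 in WT LPS and 49 to 140 in WT unstimulated libraries. Without both unstimulated replicate 1 libraries the Slc7a11 difference was 1.73 log2 units in D316Y and 2.43 in WT.

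Slc3a2 encodes the heavy chain that carries Slc7a11 and several other amino acid transporters to the cell surface. It had 7.53, 7.50 and 7.25 log2 CPM in D316Y LPS libraries, against 7.06, 6.80 and 7.16 in D316Y unstimulated libraries. Its WT values were 7.45, 7.48 and 7.67 log2 CPM with LPS, against 7.80, 7.18 and 7.22 without. The D316Y groups did not overlap and the WT groups did, with the unstimulated replicate 1 library the highest of all 12. Neither difference passed: 0.42 log2 units in D316Y (SE 0.18, adjusted p = 0.0776, limma) and 0.13 in WT (SE 0.18, adjusted p = 0.603), a direction that turned to −0.17 in WT after quantile normalization. Without both unstimulated replicate 1 libraries the WT difference was 0.33 (adjusted p = 0.0665). The D316Y difference did pass without WT unstimulated replicate 1 (0.42 log2 units, adjusted p = 0.0225), which acts there through the shared estimate of spread, and without both unstimulated replicate 1 libraries (0.44, adjusted p = 0.0172).

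Set against each other per exon length, Slc3a2 exceeded Slc7a11 by 62.8-, 101- and 68.0-fold in D316Y LPS libraries, and by 120-, 170- and 199-fold in D316Y unstimulated libraries. In WT the ratio was 62.3-, 128- and 90.3-fold with LPS, against 350-, 301- and 490-fold without. Heavy chain RNA was thus in excess in every library, and the ratio was lower in every LPS library than in any unstimulated library of the same genotype. An exact two-sided permutation test gave p = 0.1 in each genotype, the smallest that 3 against 3 libraries allow, and 0.16 after adjustment over the 8 ratio comparisons made.

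The catalytic subunit of the ligase that starts glutathione synthesis moved the other way from the importer. Gclc, which encodes it, had 0.93, 0.82 and 0.89 log2 CPM in D316Y LPS libraries, against 1.71, 1.76 and 1.20 in D316Y unstimulated libraries. The WT libraries held 0.88, 0.65 and 0.69 log2 CPM with LPS, against 1.13, 1.32 and 1.75 without. All 6 LPS libraries were below all 6 unstimulated ones. The difference was −0.68 log2 units in D316Y (SE 0.24, 1.60-fold lower, adjusted p = 0.0356, limma) and −0.66 in WT (SE 0.23, 1.58-fold lower, adjusted p = 0.0406). Gclc was among the least abundant of the 10, with 60 to 69 reads in D316Y LPS, 112 to 187 in D316Y unstimulated, 59 to 79 in WT LPS and 118 to 138 in WT unstimulated libraries.

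The fall of Gclc lay close to the threshold. In D316Y it did not pass without unstimulated replicate 1 (adjusted p = 0.0996, limma) or 2 (0.129), or without LPS replicate 1 (0.0710), 2 (0.0953) or 3 (0.0724). In WT it did not pass without unstimulated replicate 2 (adjusted p = 0.0670, limma) or 3 (0.171), or without LPS replicate 1 (0.0507), 2 (0.105) or 3 (0.0963). The WT call was also narrowly lost on leaving out D316Y unstimulated replicate 2 (0.0501) or D316Y LPS replicate 1 (0.0536), 2 (0.0517) or 3 (0.0514). The difference stayed negative in every setting tried, between −0.85 and −0.47 log2 units in D316Y and between −0.79 and −0.45 in WT.

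Gclm, the modifier subunit that raises the ligase's efficiency, had 1.92, 1.67 and 1.58 log2 CPM in D316Y LPS libraries, against 1.69, 1.88 and 1.76 in D316Y unstimulated libraries. For WT, Gclm had 2.03, 2.09 and 1.46 log2 CPM with LPS, against 1.40, 1.73 and 1.69 without. The groups overlapped in both genotypes. The difference was −0.05 log2 units in D316Y (95% limits −0.51 to 0.40, adjusted p = 0.868, limma), which became 0.14 after quantile normalization, and 0.25 in WT (95% limits −0.20 to 0.71, adjusted p = 0.380), which became 0.15 without both unstimulated replicate 1 libraries. Gclm RNA thus did not pass the test in either genotype. The 250 bases shown above for Gclm hold the only antioxidant core match among the 8 promoters searched. That motif was in 12.4% of all promoters, and a link between the match and Gclm RNA was not tested.

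The ligase subunits were also set against each other. Per exon length, Gclc stood at 0.844, 0.922 and 1.04 times Gclm in D316Y LPS libraries, and at 1.69, 1.54 and 1.14 times in D316Y unstimulated libraries. In WT it stood at 0.757, 0.615 and 0.979 times Gclm with LPS, against 1.39, 1.26 and 1.75 times without. The ratio was lower in all LPS libraries than in any unstimulated one (exact permutation p = 0.1 in each genotype, 0.16 adjusted over 8). Gclm shares 296 of its 6291 exon bases with Gm17494 on the opposite strand and 244 with Gm6061, a transcribed pseudogene on the same strand, so reads there could be split whatever the strand setting. Whether reads were counted by strand is not given in the sources used here.

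Gss, which adds glycine as the last step of synthesis, had 3.90, 3.51 and 3.52 log2 CPM in D316Y LPS libraries, against 3.72, 3.15 and 3.18 in D316Y unstimulated libraries. WT cells gave 3.94, 3.53 and 3.63 log2 CPM with LPS, against 3.73, 3.23 and 3.29 without. Replicate 1 was the highest library of its group in all 4 groups, and LPS and unstimulated groups overlapped through it. The difference was 0.29 log2 units in D316Y (SE 0.20, adjusted p = 0.281, limma) and 0.29 in WT (SE 0.20, adjusted p = 0.297). With both unstimulated replicate 1 libraries left out, it was 0.48 in D316Y and passed (adjusted p = 0.0385), and 0.44 in WT and just missed the threshold (adjusted p = 0.0539, limma). Gss shares 395 of 5915 exon bases with Acss2 on the opposite strand.

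Gsr, the NADPH-dependent reductase that recycles oxidised glutathione, had the largest LPS difference of the 10 in D316Y. It had 4.68, 4.64 and 5.06 log2 CPM in D316Y LPS libraries, against 3.31, 2.87 and 2.98 in D316Y unstimulated libraries. In WT it had 5.58, 4.78 and 4.61 log2 CPM with LPS, against 2.99, 2.87 and 2.96 without. Every LPS library was more than 1 log2 unit above every unstimulated one. The difference was 1.74 log2 units in D316Y (SE 0.22, 3.34-fold, adjusted p = 3.52e-05, limma) and 2.05 in WT (SE 0.22, 4.14-fold, adjusted p = 9.75e-06). Among the 10 genes, WT Gsr was second in size to WT Slc7a11.

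Gpx4, the selenoenzyme at the centre of ferroptosis control, had 10.14, 10.27 and 9.99 log2 CPM in D316Y LPS libraries, against 8.87, 9.61 and 9.65 in D316Y unstimulated libraries. In WT it had 9.61, 10.32 and 9.96 log2 CPM with LPS, against 8.72, 9.47 and 9.42 without. In log2 CPM, which rest on effective library sizes, the groups did not overlap within either genotype. The unstimulated replicate 1 libraries were the lowest of each genotype. The difference was 0.76 log2 units in D316Y (SE 0.26, 1.69-fold, adjusted p = 0.0333, limma) and 0.76 in WT (SE 0.26, 1.69-fold, adjusted p = 0.0347).

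The size of the Gpx4 difference turned on the replicate 1 libraries. It was 0.50 log2 units in D316Y without D316Y unstimulated replicate 1 (adjusted p = 0.125, limma) and 0.52 in WT without WT unstimulated replicate 1 (adjusted p = 0.119). With both of those libraries left out together it was 0.50 in D316Y and 0.52 in WT, and both passed (adjusted p = 0.0277 in D316Y and 0.0257 in WT, limma). The D316Y call was also lost without LPS replicate 1 (adjusted p = 0.0833), 2 (0.109) or 3 (0.0526), and the WT call without LPS replicate 2 (0.58 log2 units, adjusted p = 0.145) or 3 (0.0829).

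Aifm2, the coenzyme Q reductase that acts beside Gpx4, had 5.26, 5.16 and 5.35 log2 CPM in D316Y LPS libraries, against 4.26, 4.06 and 3.97 in D316Y unstimulated libraries. In WT it had 5.43, 5.01 and 5.07 log2 CPM with LPS, against 4.28, 3.70 and 4.04 without. The groups were well apart in both genotypes. The difference was 1.16 log2 units in D316Y (SE 0.17, 2.23-fold, adjusted p = 8.90e-05, limma) and 1.16 in WT (SE 0.17, 2.24-fold, adjusted p = 9.96e-05). These values ranged between 1.10 and 1.24 in D316Y and between 1.01 and 1.30 in WT over the 21 alternative settings, and passed in each. Aifm2 shares 233 of 4121 exon bases with H2afy2 on the opposite strand.

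The lipid side rose as well. Acsl4, which activates arachidonic and adrenic acid for esterification, had 6.23, 6.42 and 6.41 log2 CPM in D316Y LPS libraries, against 6.04, 5.28 and 5.02 in D316Y unstimulated libraries. In WT it had 7.08, 6.29 and 6.56 log2 CPM with LPS, against 5.61, 5.41 and 5.35 without. No groups overlapped, and D316Y unstimulated replicate 1 came closest to the LPS level. The difference was 0.91 log2 units in D316Y (SE 0.24, 1.88-fold, adjusted p = 0.00812, limma) and 1.18 in WT (SE 0.24, 2.27-fold, adjusted p = 0.00152). Without both unstimulated replicate 1 libraries it was 1.20 in D316Y and 1.26 in WT.

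Lpcat3, which inserts these acyl chains into lysophospholipids, had 5.52, 5.66 and 5.55 log2 CPM in D316Y LPS libraries, against 5.53, 4.97 and 4.91 in D316Y unstimulated libraries. In WT it had 6.08, 5.82 and 6.04 log2 CPM with LPS, against 5.51, 5.24 and 5.39 without. The D316Y groups overlapped through unstimulated replicate 1, and the WT groups did not overlap. The difference was 0.44 log2 units in D316Y (SE 0.16, 1.36-fold, adjusted p = 0.0435, limma) and 0.60 in WT (SE 0.16, 1.52-fold, adjusted p = 0.00982).

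The WT call of Lpcat3 was kept in all 21 alternatives and the D316Y call in 10 of 21. The D316Y difference was 0.36 log2 units without D316Y unstimulated replicate 2 (adjusted p = 0.154, limma) and 0.33 without replicate 3 (0.163), while it was 0.64 without both unstimulated replicate 1 libraries (0.000707). It also missed the threshold without D316Y LPS replicate 1 (adjusted p = 0.0798), 2 (0.133) or 3 (0.0843), and, through the shared spread, without WT unstimulated replicate 3 (0.0579) or WT LPS replicate 1 (0.0502) or 3 (0.0586). Lpcat3 shares 334 of 3268 exon bases with Emg1 on the opposite strand.

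**Figure D3:**
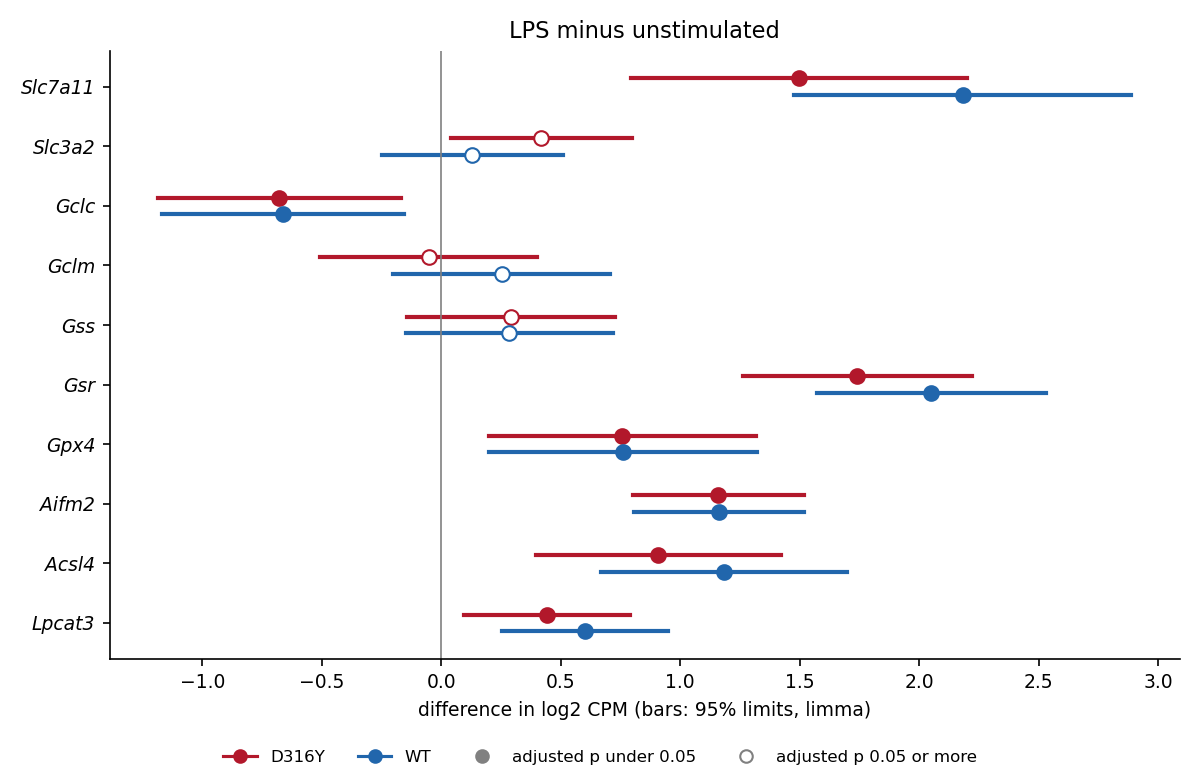
Difference in log2 CPM between LPS and unstimulated libraries (horizontal axis) for each gene, D316Y above WT; bars are 95% limits from limma, and filled points passed at adjusted p under 0.05. Slc7a11, Gsr, Gpx4, Aifm2, Acsl4 and Lpcat3 lie to the right of 0 and Gclc to the left in both genotypes, and the limits of the genotypes overlap for every gene.

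The second comparison asked whether the COQ6 change altered these genes. None of the 10 passed in unstimulated cells, where limma called 1 of 11525 genes (0.00868%), or with LPS, where it called 5 of 11306 (0.0442%), and fitting recovered reads with voom weights also called 0 of the 10 in both. At an unadjusted p under 0.05 there was 1 of the 10 in each condition, Slc7a11 at rest and Lpcat3 with LPS, against 2.92% and 6.5% of all genes. D316Y and WT libraries did not overlap for 2 of the 10 at rest (background 8.13%) and for 1 with LPS (background 12.5%).

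Slc7a11 was higher in all 3 D316Y unstimulated libraries (2.14, 1.36 and 1.50 log2 CPM) than in any WT unstimulated library (1.33, 0.93 and 0.27), though D316Y replicate 2 and WT replicate 1 lay next to each other. The difference was 0.83 log2 units (SE 0.34, 95% limits 0.04 to 1.61, 1.77-fold, unadjusted p = 0.0409) and did not pass (adjusted p = 0.942, limma). On leaving out 1 library it lay between 0.54, without WT replicate 3, and 1.07, without WT replicate 1. With the replicate number as a block, which the unstimulated libraries share across genotypes, the SE was 0.23 and the adjusted p 0.147, and that fit called 6 genes in all, none of them among the 10. With LPS, Slc7a11 was 3.53, 2.81 and 3.15 log2 CPM in D316Y libraries and 3.47, 2.45 and 3.15 in WT libraries, and the groups overlapped (difference 0.14, 95% limits −0.43 to 0.71, adjusted p = 0.955).

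The partner chain stood the other way at rest. Slc3a2 was lower in every D316Y unstimulated library (7.06, 6.80 and 7.16 log2 CPM) than in any WT one (7.80, 7.18 and 7.22), by margins as small as that between D316Y replicate 3 and WT replicate 2. The difference was −0.39 log2 units (SE 0.22, 95% limits −0.89 to 0.10, adjusted p = 0.942, limma). It was −0.19 without WT replicate 1, whose 7.80 was the highest value, and −0.22 without both replicate 1 libraries (adjusted p = 0.444). The per-length ratio of Slc3a2 to Slc7a11 was lower in D316Y at rest, at 120-, 170- and 199-fold, against 350-, 301- and 490-fold in WT (exact permutation p = 0.1, the smallest possible, 0.16 adjusted over 8). With LPS the ratio overlapped between genotypes (exact permutation p = 0.7).

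Lpcat3 was lower in D316Y in both conditions, with groups that overlapped at rest and did not overlap with LPS. With LPS it had 5.52, 5.66 and 5.55 log2 CPM in D316Y libraries, against 6.08, 5.82 and 6.04 in WT libraries. The difference was −0.40 log2 units (SE 0.12, 95% limits −0.67 to −0.14, 1.32-fold lower, unadjusted p = 0.00611) and did not pass (adjusted p = 0.533, limma), with a smallest adjusted p of 0.0905 when 1 library was left out. At rest it was −0.25 (SE 0.20, 95% limits −0.69 to 0.20, adjusted p = 0.942). Acsl4, its partner step, was −0.29 log2 units with LPS (95% limits −0.67 to 0.10, adjusted p = 0.819) and −0.01 at rest (95% limits −0.59 to 0.57, adjusted p = 0.996). On leaving out 1 library, the Acsl4 difference with LPS lay between −0.46, without WT replicate 2, and −0.07, without WT replicate 1. Without both unstimulated replicate 1 libraries, the differences at rest were −0.38 for Lpcat3 (adjusted p = 0.227) and −0.23 for Acsl4 (adjusted p = 0.430).

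For the other members the genotype differences were small beside their limits. Gpx4 differed by 0.17 log2 units in both conditions, with 95% limits of −0.52 to 0.86 at rest and −0.21 to 0.55 with LPS. At rest D316Y was above WT within each replicate number (8.87 against 8.72, 9.61 against 9.47 and 9.65 against 9.42 log2 CPM), and with the number as a block the SE was 0.085, against 0.30 without it, with an adjusted p of 0.320 (limma). Aifm2, which uses the coenzyme Q that the COQ6 pathway makes, differed by 0.09 log2 units in both conditions, with 95% limits of −0.33 to 0.51 at rest and −0.22 to 0.39 with LPS. Gclc differed by 0.16 at rest and 0.14 with LPS, and Gss by −0.06 in both. Gclm (0.17 at rest, −0.13 with LPS) and Gsr (0.11 at rest, −0.20 with LPS) changed sign between conditions within limits that span 0. Without both unstimulated replicate 1 libraries, the differences at rest were −0.05 for Gclc, 0.11 for Gclm, 0.00 for Gsr and 0.14 for Aifm2. The limits given come from fits without the block. With it, the SEs of the 10 genes at rest lay between 0.085 and 0.26, and none passed (adjusted p between 0.147 and 0.973). None of these values show that the genotypes are alike. Averaged over both conditions, a contrast chosen after seeing the data, the genotype difference passed for none of the 10 and for 6 of 11918 genes (0.0503%, limma). On that average Lpcat3 was −0.33 log2 units (SE 0.11, unadjusted p = 0.0133, adjusted p = 0.609), Slc7a11 was 0.48 (SE 0.23, adjusted p = 0.609) and Slc3a2 was −0.25 (SE 0.12, adjusted p = 0.609).

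**Figure D4:**
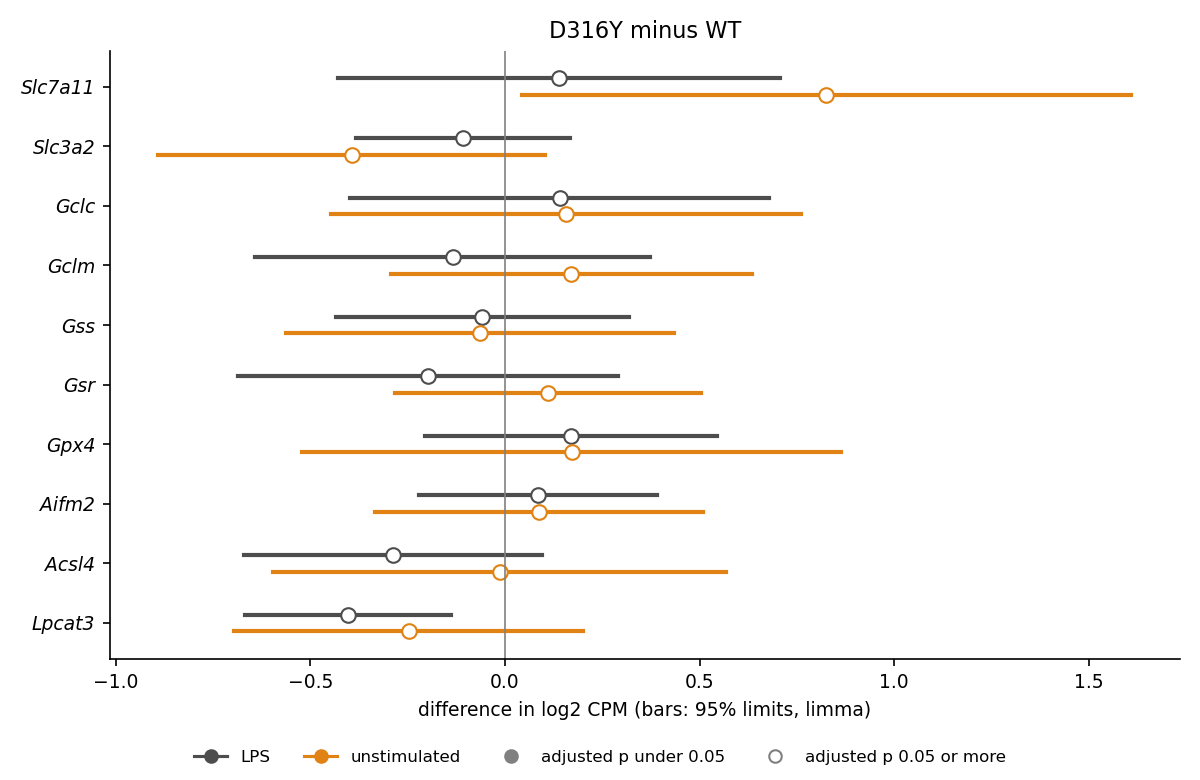
Difference in log2 CPM between D316Y and WT libraries (horizontal axis) for each gene, LPS above unstimulated; bars are 95% limits from limma, and open points did not pass. The limits leave out 0 for Slc7a11 without LPS and Lpcat3 with LPS, and neither passed after adjustment over all genes.

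Whether LPS acted differently in the genotypes was tested as an interaction, the genotype difference with LPS minus that without. None of the 10 passed, and neither did any of 11918 genes (0%), with limma or with voom weights. At an unadjusted p under 0.05 there were 0 of the 10 and 251 genes in all (2.11%). The largest was Slc7a11, whose genotype difference was 0.69 log2 units smaller with LPS (interaction −0.69, SE 0.46, 95% limits −1.68 to 0.31, unadjusted p = 0.160, adjusted p = 0.999). On leaving out 1 library it lay between −0.97, without WT LPS replicate 2, and −0.40, without WT unstimulated replicate 3. Gpx4 and Aifm2 had interactions within 0.01 log2 units of 0, with 95% limits of −0.79 to 0.79 and −0.51 to 0.50. The Acsl4 interaction was −0.27 log2 units, and −0.06 without both unstimulated replicate 1 libraries.

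Genes working beside the 10 were counted in 5 neighbouring lists. Over all genes tested, 19.4% rose with LPS and 19% fell in D316Y, and 18.1% rose and 19% fell in WT. The medians over all genes were −0.03 log2 units in D316Y and −0.01 in WT. In the list of glutathione use and turnover, 11 of 30 tested genes rose with LPS and 5 fell in D316Y, and 11 rose and 7 fell in WT. Gstt1, a glutathione transferase, averaged 5.62 ± 0.20 log2 CPM in D316Y LPS and 0.06 ± 0.57 in D316Y unstimulated libraries (SD, n = 3 each), a 47.1-fold difference (adjusted p = 2.38e-09, limma), and the fold was 43.4 in WT (adjusted p = 3.03e-09). Gpx3, the secreted glutathione peroxidase, fell by 2.52 log2 units in D316Y and by 2.30 in WT. Ggct, which breaks down gamma-glutamyl peptides, rose by 1.93 log2 units in D316Y and 1.94 in WT. The list's median was 0.05 log2 units in D316Y and 0.17 in WT.

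In the list of cysteine supply and selenoprotein synthesis, 3 of 16 tested genes rose with LPS and 3 fell in D316Y, and 3 of 17 rose and 4 fell in WT. These counts lay near the shares over all genes. Sephs2, which makes the selenium donor for selenoproteins such as Gpx4, rose by 1.35 log2 units in D316Y (adjusted p = 1.15e-05, limma) and 1.18 in WT (4.08e-05). Slc1a5, a glutamine transporter, fell by 1.22 log2 units in D316Y and by 1.05 in WT. Slc7a5, another light chain that pairs with Slc3a2, was low and met the filter in D316Y only through its unstimulated group. It averaged −2.40 ± 0.72 log2 CPM in D316Y LPS and 0.08 ± 0.42 in D316Y unstimulated libraries (SD, n = 3 each), a difference of −2.48. Ctns, which exports cystine from lysosomes, fell by 0.95 in WT. Slc7a5 and Ctns are each given for the genotype in which the naming rule picked them, and no gene passed the interaction. The median was 0.09 log2 units in D316Y and −0.01 in WT.

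In the list of polyunsaturated lipid supply and peroxidation, 6 of 22 tested genes rose and 4 fell in D316Y, and 5 rose and 4 fell in WT. Acsl1, an acyl-CoA synthetase related to Acsl4, averaged 9.10 ± 0.02 log2 CPM in D316Y LPS and 4.51 ± 0.29 in D316Y unstimulated libraries (SD, n = 3 each), a 24.0-fold difference (adjusted p = 8.71e-09, limma), and the fold was 23.1 in WT (adjusted p = 1.02e-08). Acsl5, also such a synthetase, rose by 1.92 log2 units in D316Y and 1.84 in WT. Lpcat2, an acyltransferase of platelet-activating factor synthesis, rose by 1.77 in D316Y and 1.69 in WT. The median of the list was −0.16 in D316Y and −0.05 in WT, with negative differences for 12 of the 22 genes in D316Y and 11 in WT.

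The quinone and tetrahydrobiopterin arms, which trap lipid radicals without glutathione, had 2 of 12 genes higher and 1 lower with LPS in each genotype, no more than the shares over all genes. Stard7, a lipid transfer protein that carries coenzyme Q toward the plasma membrane, rose by 2.09 log2 units in D316Y (adjusted p = 3.03e-07, limma) and 2.21 in WT (2.13e-07). Gch1, the first enzyme of tetrahydrobiopterin synthesis, rose by 1.97 in D316Y and 2.01 in WT.

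Among regulators and targets of NRF2 and ATF4, 7 of 18 rose and 4 fell with LPS in D316Y, and 5 rose and 3 fell in WT. Hmox1, the heme oxygenase induced through NRF2, rose by 1.63 log2 units in D316Y (adjusted p = 3.80e-05, limma) and 1.67 in WT (3.73e-05). Mafg, a small MAF partner of NRF2, rose by 0.93 in D316Y and 0.76 in WT. Bach1, a repressor of the same elements, fell by 0.93 in D316Y, and Ddit3, a stress transcription factor, rose by 0.92 in WT. Bach1 and Ddit3 are likewise each given for the genotype in which the naming rule picked them, which does not show a difference between genotypes. The median was 0.45 log2 units in D316Y and 0.22 in WT.

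**Figure D5:**
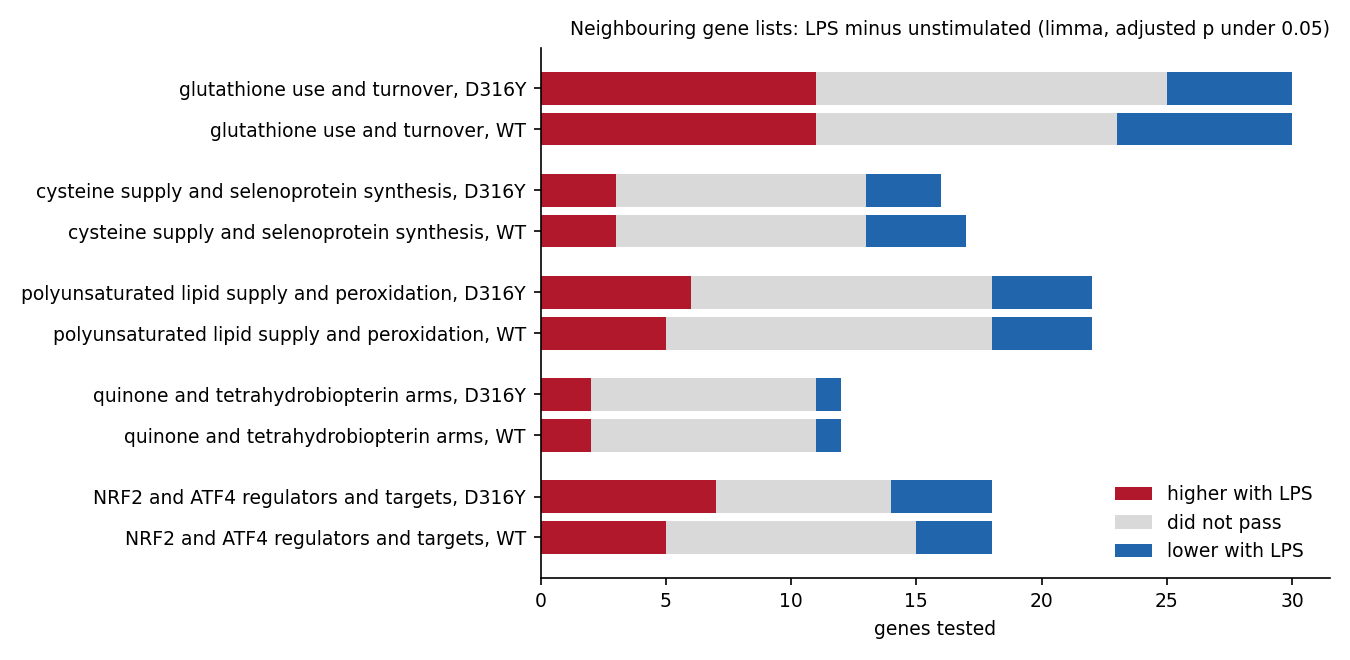
Number of tested genes (horizontal axis) in each of the 5 neighbouring lists that were higher with LPS, lower with LPS or did not pass (limma, adjusted p under 0.05), D316Y above WT. Every list holds genes of both directions, from 11 higher and 5 lower of 30 for glutathione use in D316Y to 2 higher and 1 lower of 12 for the quinone and tetrahydrobiopterin arms.

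Between D316Y and WT, none of the genes in the 5 lists passed in either condition. The gene with the smallest unadjusted p of each list at rest had a negative difference in every list. Chac1, which degrades glutathione and is an ATF4 target, averaged 1.01 ± 0.17 log2 CPM in D316Y and 1.98 ± 0.33 in WT (SD, n = 3 each; difference −0.97, adjusted p = 0.942, limma), and Slc1a4, a transporter of neutral amino acids, differed by −1.25. Trib3, also an ATF4 target, differed by −0.71, Mboat7, an acyltransferase, by −0.30 and Spr, of tetrahydrobiopterin synthesis, by −0.26. With LPS the corresponding genes were Glrx5 (−0.72, adjusted p = 0.533), Eefsec (−0.39), Por (−0.35), Gch1 (−0.48) and Sqstm1 (−0.29). At rest, differences were negative for 15 of 17 genes of the NRF2 and ATF4 list (median −0.19), 14 of 16 of the cysteine supply list (−0.14), 15 of 21 of the polyunsaturated lipid list (−0.09), 17 of 30 of the glutathione use list (−0.03) and 7 of 12 of the quinone and tetrahydrobiopterin list (−0.03), against a median of −0.02 over all genes. With LPS they were negative for 9 of 18 (−0.02), 10 of 15 (−0.08), 16 of 22 (−0.16), 16 of 29 (−0.02) and 6 of 12 (0.00) in the same order of lists, against a median of 0.00 over all genes. These counts of signs were not tested. Nor were the lists counted again without both unstimulated replicate 1 libraries.

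For 4 members, the genes with the most similar pattern over the 12 libraries were found by the root mean square difference in log2 CPM after each gene's own mean was taken off, among 10047 genes. Nearest to Slc7a11 were Ldha-ps2 (0.344), Cd33 (0.368) and Gm11110 (0.400), and among the 10 genes Gsr was nearest at rank 16 (0.443). Gpx4 had closer neighbours, Atox1 (0.0816) and Mrps18c (0.0881). Nearest to Acsl4 were Gpi1 (0.124), Mthfd1l (0.141) and Itgam (0.145), and to Aifm2 they were Pirb (0.128), Tmem38b (0.143) and Spidr (0.147). Aifm2 ranked 94 for likeness to Acsl4 (0.253), the closest pair among those set against these 4 genes. The libraries share the LPS contrast and the differences in depth, so these values describe pattern and carry no test.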

How the data were processed

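Per the submitters' processing notes, the authors worked with STAR 2.5.1a and bcl2fastq, with featureCounts 1.4.6-p5 of Subread, and with limma and edgeR. Build, annotation and strand setting: not given in the sources used here. There are 2 tables, each with 12493 entries, in which the authors deposited identical log2 CPM values of 12 libraries, and, per the file headers, their own log2 fold changes with deposited p-values. After 52 repeated identifiers were taken once, 12441 genes remained, and 15 symbols turned into dates were restored. Each value is the log2 of (reads + 0.5) per effective library size, and 100% of the values under 200 reads came within 0.01 of a whole read. The reads behind each value limit its precision, and read counts cover counting error only.

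Groups were compared with limma 3.58.1 in R 4.3.3 (data.table version 1.17.8; eBayes with trend and robust) on the deposited log2 values, two-sided, with Benjamini-Hochberg adjustment over all genes tested and a threshold of 0.05. A gene was tested when either compared group averaged 0 log2 CPM or more, and all 10 members passed this filter in each comparison. Genotypes were compared within 6 libraries. LPS comparisons, which share an estimate of spread, and the interaction came from a single fit of 12 libraries. Ratios used exact permutation tests in scipy 1.17.1 with pandas 2.3.3 and numpy 2.4.6 in Python 3.11.15, and figures used matplotlib 3.10.9. The fit was tested on simulated data. Exon lengths, positions and overlaps came from GENCODE M21 (GRCm38), promoters from RefSeq.

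The members and gene lists were chosen with earlier results of these data known. All 10 members are named in each comparison. Each list names up to 3 genes with the smallest adjusted p among those that passed, or the 1 with the smallest unadjusted p where none did. Of the genes these rules name, 2 are not reported here. The replicate number was checked for pairing by correlating, across genes, how libraries with one number departed from their group means. The correlation was 0.656, 0.631 and 0.200 between unstimulated D316Y and WT, so the block is given for that comparison where a count changes. For D316Y LPS with WT LPS it was −0.140, 0.0859 and −0.0136, and for D316Y with and without LPS −0.189, −0.248 and −0.102. For WT with and without LPS it was 0.422, 0.231 and −0.0922, so the replicate numbers there agreed in part. With the block, the SE of the WT LPS difference was 0.23 for Slc7a11 and 0.18 for Gpx4, and it was 0.26 for Gclc. Alternatives were no filter, a stricter filter of at least 1 log2 CPM in every compared group, quantile normalization, log2(CPM + 1), eBayes without trend and robust, a replicate block, each library left out, both unstimulated replicate 1 libraries left out, another set of libraries in the fit, and voom weights, the last chosen after seeing the data.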

Additional observations from a re-analysis of the deposited data

How the results depend on the processing

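Without LPS, limma called 1 gene between D316Y and WT, and 0 without the filter, with quantile normalization or without trend and robust, 6 with the replicate block, 10 with both unstimulated replicate 1 libraries left out, 4 from the fit of all 4 groups, and 0 to 1 on leaving out 1 library. With LPS it called 5, and 1 with the stricter filter or without trend and robust, and 2 to 22 on leaving out 1 library (WT replicate 2 out gave 22, WT replicate 3 out gave 2, and D316Y replicate 1 or 3 out gave 3). None of the 10 members was called between genotypes, or by the interaction, in any of these settings. For LPS in D316Y, 7 members passed, 4 with quantile normalization, and 4 to 8 on leaving out 1 library, with 4 when any D316Y LPS replicate was the one left out. For LPS in WT, 7 passed, and 5 to 7 over the alternatives. The replicate block left 6 members called for LPS in each genotype, since Gclc missed the threshold (adjusted p = 0.0504 in D316Y and 0.0559 in WT, limma). Of the LPS calls, Gsr, Slc7a11, Aifm2 and Acsl4 were kept in both genotypes in every alternative that gave a value, and so was Lpcat3 in WT. Beyond the libraries named above, Gclc missed the threshold with quantile normalization in both genotypes, in fits of 1 genotype, in D316Y without both replicate 1 libraries, and in WT with voom weights. Gpx4 missed it with quantile normalization in both genotypes and in the WT fit alone, and D316Y Lpcat3 with quantile normalization, without trend and robust and in the D316Y fit alone. Some uncalled differences changed sign. At rest, Acsl4 between genotypes was 0.053 with quantile normalization and Gclc was −0.052 without both replicate 1 libraries. On leaving out 1 library, the ranges there were −0.31 to 0.20 for Acsl4, −0.25 to 0.094 for Gss, −0.071 to 0.42 for Gpx4, −0.068 to 0.22 for Aifm2 and −0.018 to 0.20 for Gsr. With LPS they were −0.19 to 0.063 for Gss, −0.39 to 0.095 for Gsr, −0.0081 to 0.35 for Gpx4 and −0.15 to 0.36 for Slc7a11. For LPS, Gclm in D316Y was 0.14 with quantile normalization and −0.15 to 0.018 on leaving out 1 library, and Slc3a2 in WT was −0.17 with quantile normalization. The interaction was 0.026 for Gclc and 0.093 for Gpx4 with quantile normalization, 0.19 for Gclc without both replicate 1 libraries, 0.00049 for Gpx4 with voom weights and 0.0018 for Aifm2 on log2(CPM + 1). On leaving out 1 library it was −0.19 to 0.12 for Gclc, −0.25 to 0.24 for Gpx4, −0.14 to 0.15 for Aifm2, −0.15 to 0.19 for Gss, −0.49 to 0.020 for Acsl4 and −0.27 to 0.039 for Lpcat3. The cause was not tested. The stricter filter, which every compared group had to pass, gave no value for Gclc in comparisons with LPS libraries or for Slc7a11 in comparisons with WT unstimulated libraries. Gclc, Gclm and unstimulated Slc7a11 rest on the fewest reads.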

Other observations

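The authors' deposited tables call 7 genes at rest and 10 with LPS, and none of the 10 genes described here. Lpcat3 has the smallest p of the 10 in both of the authors' deposited tables. The authors' deposited table gives its log2 fold change with LPS as −0.45 (limits −0.651 to −0.249, p = 0.000146, adjusted p = 0.101) and at rest as −0.374 (limits −0.594 to −0.153, p = 0.00206, adjusted p = 0.142). For Slc7a11 the authors' deposited table gives 0.968 at rest (limits 0.228 to 1.71, adjusted p = 0.216) and 0.102 with LPS (adjusted p = 0.87). These files do not say which model produced the authors' values.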
